A study of Mus musculus with 6 samples.

Results

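The genes described here code for proteins of the lipid droplet, the store of neutral lipid in the cell. They are the 5 perilipins Plin1 to Plin5, the CIDE genes Cidea, Cideb and Cidec, the triglyceride lipase Pnpla2 and its inhibitor G0s2. They were chosen by gene symbol, and all 10 were found among the 39179 genes of the deposited tables. The values came from RNA-seq of liver tumours of C57BL/6 wild-type mice. Transposons, DNA that inserts into the genome, had been brought into hepatocytes by hydrodynamic injection. All tumours received Myc, together with NrasG12V, an activated Ras GTPase, in 3 libraries and with Akt1, an insulin pathway kinase, in 3 others. Age, time after injection, promoter and any untreated liver are not in the labels, nor is whether the 3 samples of each group are 3 mice. The p-values below therefore measure only the spread between these samples, which may be technical.

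A lipid droplet is a core of triglyceride and sterol ester under a single phospholipid layer. Perilipins coat that surface and limit the access of lipases, CIDE proteins let a small droplet pass its lipid to a larger one, and PNPLA2 (ATGL) takes the first fatty acid off a triglyceride. Hepatocytes carry droplets coated mainly by PLIN2, with PLIN3 and PLIN5, while PLIN1 is the coat protein of adipocytes. Accumulation of such droplets is steatosis, and fatty liver is known for raised PLIN2 and CIDEC.

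The libraries held 17881282 to 21780251 reads in Myc/NrasG12V and 22005319 to 27865094 reads in Myc/Akt1. The delivered genes bore on the labels. Nras averaged 171 ± 25.0 CPM in Myc/NrasG12V and 56.0 ± 4.51 CPM in Myc/Akt1, and Akt1 averaged 65.1 ± 19.1 CPM in Myc/NrasG12V and 279.9 ± 33.8 CPM in Myc/Akt1 (SD, n = 3 each). CPM is reads of a gene per 1000000 reads of its library. Principal component 2 (11.6% of the variance) set Myc/NrasG12V replicate 3 apart from the other Myc/NrasG12V libraries, and values without it are given beside the results it moved. The mitochondrially encoded share of reads was 2.05 to 3.99% in Myc/NrasG12V and 7.62 to 9.09% in Myc/Akt1, without overlap, and its part in the results was not tested. Over all tested genes the log2 difference, Myc/NrasG12V minus Myc/Akt1, had a median of -0.26 on the CPM scale, and between 0.00 and 0.05 with 3 other scaling factors. A difference of one gene is relative to that shift.

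Most of these genes were lower in Myc/NrasG12V tumours. Of the 10 genes, 6 were lower in Myc/NrasG12V (Plin2, Plin4, Plin5, Cideb, Cidec and G0s2), 0 were higher, and Plin3, Cidea and Pnpla2 did not pass the test. Plin1 was too low to be tested. The call was an adjusted p under 0.05 in limma on log2(CPM + 1) over 14365 genes, of which 39.5% were called: 10% with Myc/NrasG12V above Myc/Akt1 and 29.5% with Myc/NrasG12V below it. At an unadjusted p under 0.05 limma also placed 0 of the genes higher in Myc/NrasG12V, and edgeR and DESeq2 called 0 higher and 6 lower there. The median log2 difference of the 9 tested genes was -2.06. The 6 genes were those whose groups did not overlap, which held for 52.7% of tested genes in either direction and for 38.0% with Myc/Akt1 higher. In bulk tumour RNA, fewer cells of a type and less RNA per cell cannot be told apart.

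**Figure D1:**
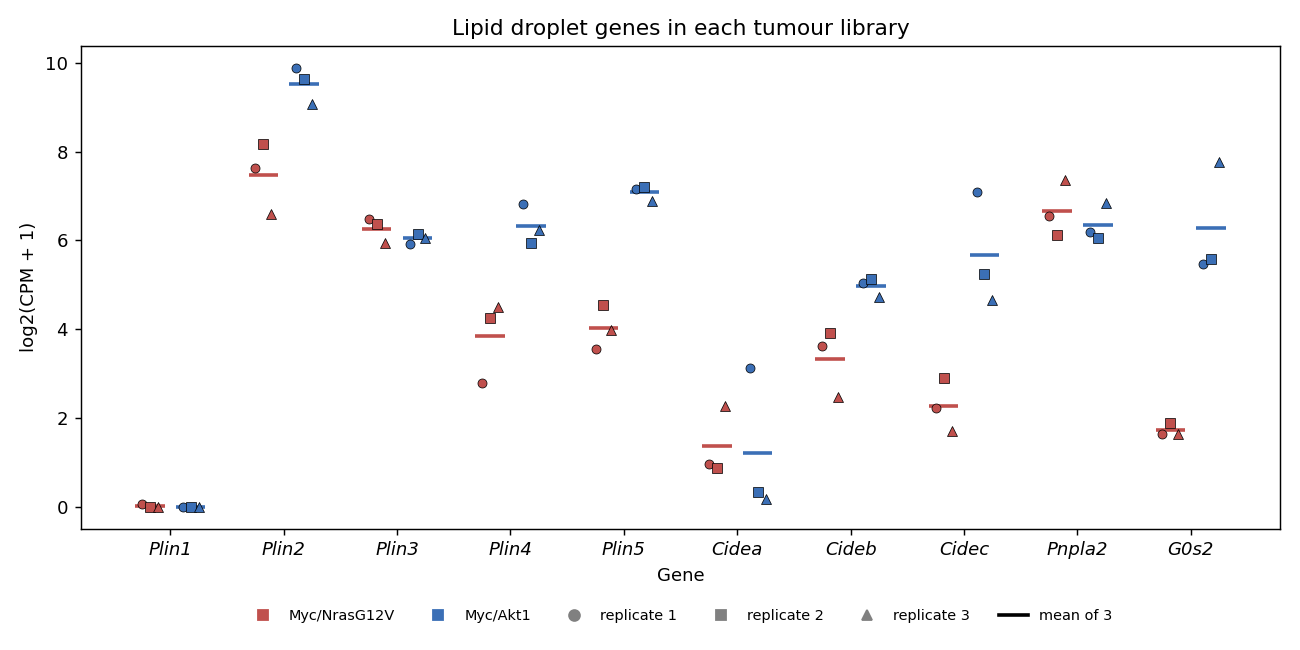
log2(CPM + 1) of each gene in each library, with Myc/NrasG12V left (red) and Myc/Akt1 right (blue), a marker shape per replicate and a bar at the mean of 3. Plin2, Plin4, Plin5, Cideb, Cidec and G0s2 are separated between the groups, Plin3, Cidea and Pnpla2 overlap, and Plin1 lies at 0 apart from 1 read.

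**Figure D2:**
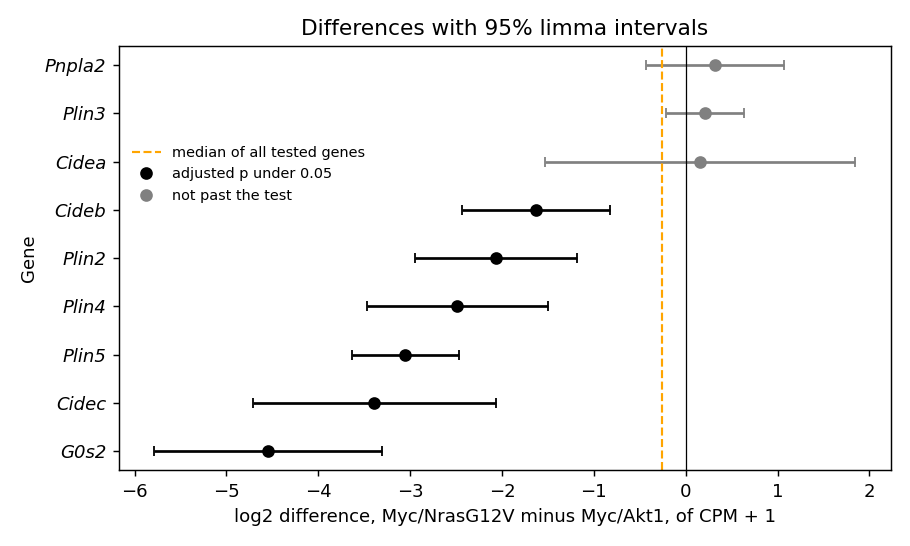
Limma log2 difference in log2(CPM + 1), Myc/NrasG12V minus Myc/Akt1, for the 9 tested genes with 95% intervals. The intervals of 6 genes (black) lie left of 0 and of the median of all tested genes, -0.26 (dashed), and those of Pnpla2, Plin3 and Cidea (grey) include 0.

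The perilipins came first as the coat of the droplet. Plin2 (ENSMUSG00000028494, chromosome 4, 86648386 to 86670060, minus strand, GRCm38), which coats droplets in most cells, was at 196, 286 and 95.9 CPM in Myc/NrasG12V, against 944, 787 and 538 CPM in Myc/Akt1. Every Myc/Akt1 library was above every Myc/NrasG12V library. The mean was 3.92-fold higher in Myc/Akt1, with a log2 difference of -2.06 ± 0.39 (SE) and a limma adjusted p of 0.00369. By group mean, Plin2 was the most abundant of the 10 genes per kilobase of exon in both groups. At 54.9 ± 27.1 CPM per kb in Myc/NrasG12V and 215 ± 58.2 CPM per kb in Myc/Akt1 (SD, n = 3 each), it lay above 95.8% and 98.5% of tested genes. In replicate 3 of each group another gene was above Plin2. These were Pnpla2 in Myc/NrasG12V (53.7 against 27.3 CPM per kb) and G0s2 in Myc/Akt1 (249 against 153 CPM per kb).

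Plin5 (ENSMUSG00000011305, chromosome 17, 56111601 to 56117596, minus strand), the perilipin of oxidative tissues that tethers droplets to mitochondria, had the lowest adjusted p of the 10 genes. It was at 10.6, 22.5 and 14.9 CPM in Myc/NrasG12V, against 142, 145 and 118 CPM in Myc/Akt1. The groups were far apart and the Myc/Akt1 libraries were close to each other. The mean was 8.45-fold higher in Myc/Akt1, with a log2 difference of -3.05 ± 0.26 (SE) and a limma adjusted p of 1.20e-04.

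Plin4 (ENSMUSG00000002831, chromosome 17, 56100591 to 56109803, minus strand), a long perilipin best known from fat and muscle, was at 5.92, 18.1 and 21.4 CPM in Myc/NrasG12V, against 112, 60.4 and 73.9 CPM in Myc/Akt1. The lowest Myc/Akt1 library was still above the highest Myc/NrasG12V library. The mean was 5.42-fold higher in Myc/Akt1, with a log2 difference of -2.49 ± 0.43 (SE) and a limma adjusted p of 0.00256.

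Plin3 (ENSMUSG00000024197, chromosome 17, 56277476 to 56292873, minus strand), which moves from the cytosol to nascent droplets, did not follow. It was at 87.6, 81.7 and 60.1 CPM in Myc/NrasG12V, against 59.8, 70.1 and 65.8 CPM in Myc/Akt1. The groups overlapped. The log2 difference of 0.21 had a 95% interval of -0.21 to 0.63 (limma adjusted p = 0.401). Plin1 (ENSMUSG00000030546, chromosome 7, 79720218 to 79732903, minus strand), the adipocyte perilipin, had 1 read in Myc/NrasG12V replicate 1 and 0 reads in the other 5 libraries. A count of 0 allowed up to 0.108 to 0.168 CPM in a library, for counting error only. Of the 6 tested genes of the adipocyte marker list, 1 (Lpl) was higher in Myc/NrasG12V, and 2 were lower, Pparg and Adrb3, a beta-adrenergic receptor. These were 16.7% and 33.3%, near the 10% and 29.5% of all tested genes for so short a list. The Lpl call ended under several alternatives, given below. Adrb3 averaged 2.97 ± 0.847 CPM in Myc/NrasG12V and 14.2 ± 8.96 CPM in Myc/Akt1 (SD, n = 3 each; limma adjusted p = 0.00684). The markers too low to test were Adipoq, Retn, Lep and Cfd. Adipoq had 7 reads in Myc/NrasG12V and 7 in Myc/Akt1, Retn had 1 in Myc/NrasG12V and 2 in Myc/Akt1, Cfd had 29 in Myc/NrasG12V and 12 in Myc/Akt1, and Lep had 0 in all 6 libraries. The part of adipocytes in these differences was not tested.

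Plin4, Plin5 and Plin3 lie on the same strand of chromosome 17 within 192.3 kb. Plin4 and Plin5, both lower in Myc/NrasG12V, are 1.80 kb apart, and Plin3, which did not pass, begins 159.9 kb beyond Plin5. Between Plin5 and Plin3, at 2.08 kb from Plin5, is Lrg1, a secreted glycoprotein gene with the opposite difference. Lrg1 averaged 687 ± 46.2 CPM in Myc/NrasG12V and 169 ± 52.9 CPM in Myc/Akt1 (SD, n = 3 each), with a log2 difference of 2.06 and a limma adjusted p of 3.50e-04. The immediate neighbour of Plin4 on the side away from Plin5, Hdgfl2, shares 17 exon bases with Plin4 on the opposite strand. Hdgfl2 did not pass (log2 difference -0.08, limma adjusted p = 0.808).

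The bases just before the starts of the 3 chromosome 17 perilipins and of Plin2 are shown, since the adjacent pair Plin4 and Plin5 shared a motif there and Plin3 did not hold it. They come from RefSeq windows of GRCm38.p6, read 5′ to 3′ on the gene's strand, 100 bases long and ending at the base before the start, or for Plin2 106 bases long and ending 6 bases after it. For Plin3 the start used lies inside the gene coordinates given above, which reach 56292873, and no window further upstream was searched. Capitals mark CTATAAGG, a TATA-like octamer, or CACGTG, the E-box to which MYC with MAX and other bHLH factors bind.
Plin4, chr17:56109783-56109882, minus strand: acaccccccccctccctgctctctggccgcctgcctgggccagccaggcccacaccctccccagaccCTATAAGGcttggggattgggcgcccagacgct
Plin5, chr17:56117549-56117648, minus strand: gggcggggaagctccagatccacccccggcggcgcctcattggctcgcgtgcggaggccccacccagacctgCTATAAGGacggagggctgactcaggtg
Plin3, chr17:56290512-56290611, minus strand: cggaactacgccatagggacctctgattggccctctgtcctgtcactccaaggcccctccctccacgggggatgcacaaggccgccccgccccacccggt
Plin2, chr4:86670054-86670159, minus strand: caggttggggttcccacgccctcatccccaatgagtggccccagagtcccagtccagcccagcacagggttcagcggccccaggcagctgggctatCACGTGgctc

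Among 32851 RefSeq windows, each from 250 bases before a start to 50 after it, 11 windows of 9 of the 10 genes were searched. Cidea, on chromosome 18, was left out of this search. CTATAAGG, searched on the gene's strand after the sequences had been seen, began at base -33 of Plin4 and at base -28 in the Plin5 window shown, 1 of 2 for that gene, and 0.225% of all windows held it. CACGTG, which reads the same on both strands, began at base -4 of Plin2, and 7.15% of all windows held it. The other motifs, on both strands, were a pair of AGGNCA letters with any 1 base between them (a PPAR and RXR repeat, in 0.381% of all windows), GTAAACA (a FOXO site, 3.65%) and TCACNCCAC (a sterol element, 1.24%). These letters were found in 0 of the 11 windows. TATAAA, also added later and searched on the gene's strand, was in 1, that of Cideb, and in 8.32% of all windows. A match is a description of the letters only.

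The CIDE genes, which control the fusion and growth of droplets, were lower in Myc/NrasG12V for Cidec and Cideb. Cidec (ENSMUSG00000030278, chromosome 6, 113424634 to 113435760, minus strand), the fat-specific protein that makes large droplets, was at 3.68, 6.43 and 2.24 CPM in Myc/NrasG12V, against 135, 36.8 and 24.1 CPM in Myc/Akt1. All Myc/Akt1 values were above all Myc/NrasG12V values, but Myc/Akt1 replicate 1 was 5.60-fold above replicate 3 of its group. The mean was 15.9-fold higher in Myc/Akt1, or 7.40-fold without that library. The log2 difference was -3.39 ± 0.58 (SE), with a limma adjusted p of 0.00244.

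Cideb (ENSMUSG00000022219, chromosome 14, 55754050 to 55758458, minus strand), the CIDE gene of healthy hepatocytes that also serves lipoprotein secretion, was at 11.2, 14.1 and 4.59 CPM in Myc/NrasG12V, against 31.9, 34.1 and 25.6 CPM in Myc/Akt1. The lowest values of both groups were in replicate 3, and the groups did not overlap. The mean was 3.06-fold higher in Myc/Akt1, with a log2 difference of -1.63 ± 0.36 (SE) and a limma adjusted p of 0.00735. Cideb shares 1136 exon bases with Nop9 on the opposite strand, and the strand setting of the counting was not given in the sources used here, so reads of the pair may not be separated. Nop9 averaged 27.3 ± 3.36 CPM in Myc/NrasG12V and 45.7 ± 4.34 CPM in Myc/Akt1 (SD, n = 3 each), a log2 difference of -0.72 (limma adjusted p = 0.0113).

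Cidea (ENSMUSG00000024526, chromosome 18, 67343604 to 67367785), a CIDE gene of brown fat that appears in fatty liver, was low and uneven. It was at 0.955, 0.826 and 3.80 CPM in Myc/NrasG12V, against 7.72, 0.251 and 0.136 CPM in Myc/Akt1. In reads these were 20, 18 and 68 in Myc/NrasG12V, against 182, 7 and 3 in Myc/Akt1. The highest and the lowest library of all 6 were both Myc/Akt1. The log2 difference of 0.16 did not pass (95% interval -1.54 to 1.85, limma adjusted p = 0.888), and its sign turned with edgeR and when Myc/Akt1 replicate 2, Myc/Akt1 replicate 3 or Myc/NrasG12V replicate 3 was left out. Myc/Akt1 replicate 1, highest for Cidea, was also highest for Cidec, Plin2 and Plin4. All 3 tested genes of the brown adipocyte marker list, which holds 8, were lower in Myc/NrasG12V, against 29.5% of all tested genes. By edgeR or DESeq2 these were 2. To be tested, a gene needed 0.457 CPM in 3 libraries. The 3 genes reached that in every Myc/Akt1 library but not in every Myc/NrasG12V library. The filter thus favoured this direction, and the count says little about it. Prdm16, a transcription cofactor of brown fat, averaged 0.657 ± 0.388 CPM in Myc/NrasG12V and 3.45 ± 1.09 CPM in Myc/Akt1 (SD, n = 3 each; limma adjusted p = 0.00300), and Cox7a1 and Elovl3 averaged 0.549 and 0.108 CPM in Myc/NrasG12V and 1.64 and 0.898 CPM in Myc/Akt1. The list summed to 1.01 to 2.39 CPM in Myc/NrasG12V and 4.81 to 7.81 CPM in Myc/Akt1. The defining marker Ucp1 had 0 reads in Myc/NrasG12V and 2 in Myc/Akt1. The part of such cells in the results was not tested.

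Lipolysis at the droplet surface was represented by the lipase and its inhibitor, which differed in their pattern. Pnpla2 (ENSMUSG00000025509, chromosome 7, 141455198 to 141460743, plus strand), the adipose triglyceride lipase, was at 92.7, 68.1 and 162 CPM in Myc/NrasG12V, against 71.7, 65.0 and 113 CPM in Myc/Akt1. The groups overlapped, and the highest value of each was in replicate 3. The log2 difference of 0.32 had a 95% interval of -0.43 to 1.07 (limma adjusted p = 0.474) and became -0.02 without Myc/NrasG12V replicate 3.

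G0s2 (ENSMUSG00000009633, chromosome 1, 193272161 to 193273217, minus strand), whose small protein binds PNPLA2 and blocks its activity, had the largest difference of the 10 genes. It was at 2.10, 2.71 and 2.13 CPM in Myc/NrasG12V, against 43.2, 46.5 and 217 CPM in Myc/Akt1. The Myc/NrasG12V libraries were nearly equal, and Myc/Akt1 replicate 3 was 5.02-fold above replicate 1 of its group. The mean was 44.2-fold higher in Myc/Akt1, or 19.4-fold without Myc/Akt1 replicate 3. The log2 difference was -4.55 ± 0.55 (SE), with a limma adjusted p of 4.82e-04. G0s2 lies within Lamb3, a laminin gene on the opposite strand, with 0 shared exon bases. Lamb3 averaged 1.76 ± 0.672 CPM in Myc/NrasG12V and 30.3 ± 12.4 CPM in Myc/Akt1 (SD, n = 3 each), a log2 difference of -3.44 (limma adjusted p = 2.26e-04).

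Ratios of CPM + 1 between genes of a library were compared for 4 pairs. The log2 ratio of G0s2 to Pnpla2, inhibitor over enzyme, was -4.92, -4.22 and -5.71 in Myc/NrasG12V, against -0.72, -0.47 and 0.94 in Myc/Akt1. The inhibitor transcript was far below that of the enzyme in every Myc/NrasG12V library, and the groups did not overlap. The difference was -4.86, with an exact permutation p of 0.1 (two-sided, n = 3 each; 0.133 adjusted over the 4 pairs), the smallest p this design allows. With 0.1 in place of the added 1 the difference was -5.31. The ratios used CPM without division by exon length, so their sign does not rank the 2 transcripts. Per kilobase, G0s2 was at 49.6, 53.4 and 249 CPM per kb in Myc/Akt1, above Pnpla2 at 23.7, 21.5 and 37.3. In Myc/NrasG12V G0s2 was below Pnpla2 on that scale too. The log2 ratio of Plin3 to Plin2 averaged -1.21 ± 0.57 in Myc/NrasG12V and -3.48 ± 0.47 in Myc/Akt1, and that of Cidec to Cideb -1.07 ± 0.30 in Myc/NrasG12V and 0.69 ± 1.18 in Myc/Akt1 (SD, n = 3 each). Both pairs were separated between the groups, each with an exact permutation p of 0.1 (n = 3 each; 0.133 adjusted). The difference for Cidec to Cideb was -1.76, and -1.08 without Myc/Akt1 replicate 1. The log2 ratio of Plin5 to Plin2 averaged -3.44 ± 0.75 in Myc/NrasG12V and -2.44 ± 0.27 in Myc/Akt1, and there the groups overlapped (exact permutation p = 0.2, n = 3 each; 0.2 adjusted).

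**Figure D3:**
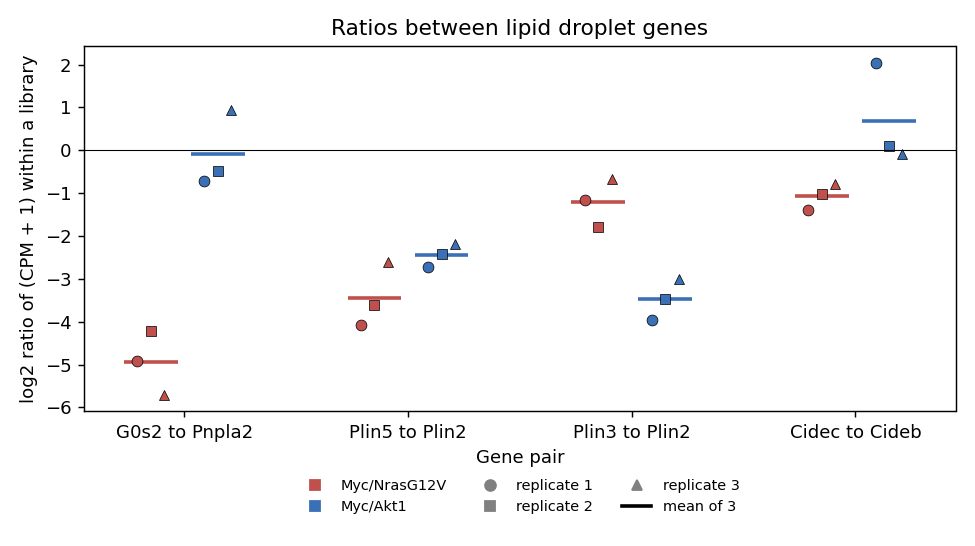
log2 ratio of CPM + 1 of 2 genes within each library, with Myc/NrasG12V left (red), Myc/Akt1 right (blue) and a bar at the mean of 3. G0s2 to Pnpla2, Plin3 to Plin2 and Cidec to Cideb are separated between the groups, and Plin5 to Plin2 overlaps.

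The makeup of each family is given as shares of its summed CPM per kilobase of exon. The 5 perilipins summed to 85.4 ± 31.5 CPM per kb in Myc/NrasG12V and 311 ± 66.8 CPM per kb in Myc/Akt1 (SD, n = 3 each). Plin2 held the largest share in all 6 libraries, 61.96 ± 10.1% in Myc/NrasG12V and 68.5 ± 4.24% in Myc/Akt1. The order of the next perilipins was reversed, with Plin3 above Plin5 in every Myc/NrasG12V library and below it in every Myc/Akt1 library. Plin3 held 25.0 ± 5.79% in Myc/NrasG12V and 5.75 ± 1.505% in Myc/Akt1, Plin5 held 9.46 ± 3.61% in Myc/NrasG12V and 21.1 ± 2.62% in Myc/Akt1, and Plin4 held 3.58 ± 2.94% in Myc/NrasG12V and 4.60 ± 1.17% in Myc/Akt1 (SD, n = 3 each).

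The 3 CIDE genes summed to 10.6 ± 3.01 CPM per kb in Myc/NrasG12V and 58.2 ± 37.8 CPM per kb in Myc/Akt1 (SD, n = 3 each). Cidec held 19.1, 25.3 and 15.7% of that sum in Myc/NrasG12V, against 71.9, 46.2 and 42.9% in Myc/Akt1. Its share was higher in every Myc/Akt1 library, and Myc/Akt1 replicate 1 stood out. Cideb held 72.7, 69.3 and 40.0% in Myc/NrasG12V, against 21.2, 53.3 and 56.7% in Myc/Akt1, and its ranges overlapped. Cidea held 44.3% in Myc/NrasG12V replicate 3 and between 0.403 and 8.25% in the other 5 libraries.

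**Figure D4:**
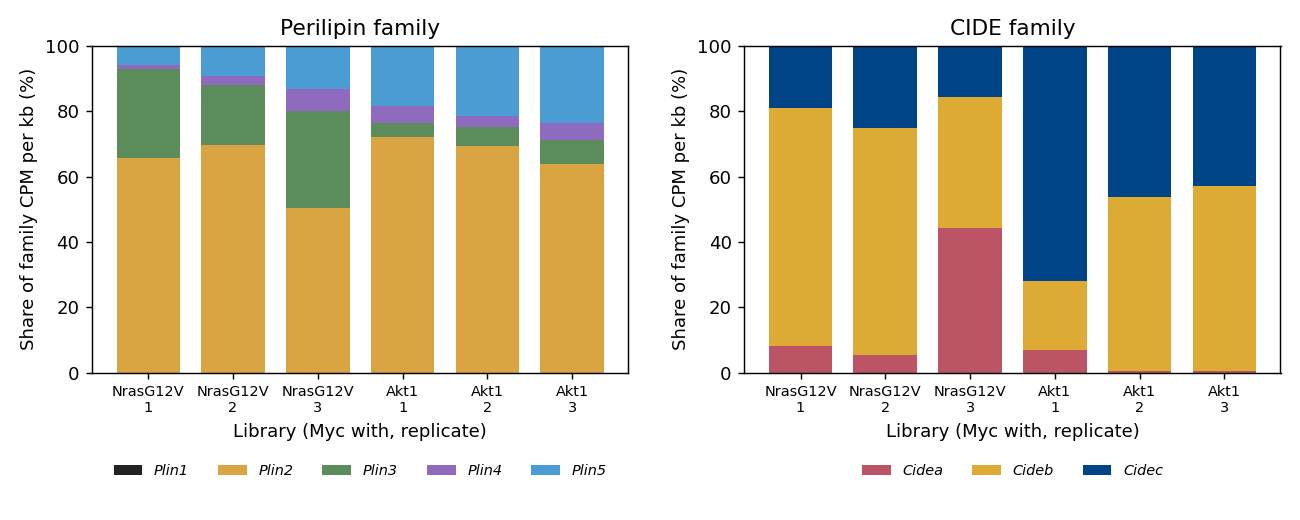
Share of each gene in the summed CPM per kb of its family (%) in each library, Myc/NrasG12V replicates 1 to 3 left and Myc/Akt1 replicates 1 to 3 right. Among perilipins Plin2 leads in every library and Plin3 gives way to Plin5 in Myc/Akt1. Among CIDE genes Cidec takes 42.9 to 71.9% in Myc/Akt1.

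Across all 10 genes the order of group mean levels per kilobase differed between the groups. In Myc/NrasG12V Plin2 was followed by Pnpla2 at 35.7 ± 16.1 CPM per kb and Plin3 at 20.2 ± 3.82 CPM per kb, whose values came within each other's spread. Plin5, Cideb, G0s2, Plin4, Cidec, Cidea and Plin1 followed, between 7.66 and 0.00342 CPM per kb. In Myc/Akt1 Plin2 was followed by G0s2 at 117 ± 114 CPM per kb, Plin5 at 64.7 ± 7.25 CPM per kb and Cidec at 35.2 ± 32.7 CPM per kb (SD, n = 3 each). The spread of G0s2 and Cidec covered their neighbours in that order. G0s2 was sixth in Myc/NrasG12V and second in Myc/Akt1.

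Other genes of droplet turnover were read from lists. Of 13 tested lipolysis genes besides Pnpla2 and G0s2, 1 was higher in Myc/NrasG12V and 8 were lower, or 7.69% and 61.5%, against 10% and 29.5% of all tested genes, with a median log2 difference of -1.34. The 1 became 2 with each of the 3 other scaling factors, with the replicate block and without Myc/NrasG12V replicate 2 or 3, and 3 by edgeR or DESeq2. Mgll, the monoglyceride lipase of the last step, averaged 15.9 ± 4.59 CPM in Myc/NrasG12V and 267 ± 97.5 CPM in Myc/Akt1 (SD, n = 3 each; limma adjusted p = 7.60e-05). Ces1d, a triglyceride hydrolase of hepatocytes, was 14.5-fold higher in Myc/Akt1, although Ces1 genes have close copies among which reads may be split. Abhd6, another monoglyceride lipase, was 5.32-fold and Vcp, an AAA ATPase that extracts proteins for degradation, 2.55-fold higher in Myc/Akt1. The gene higher in Myc/NrasG12V was Hilpda, a hypoxia-induced inhibitor of PNPLA2. Hilpda was at 31.4, 46.6 and 51.5 CPM in Myc/NrasG12V, against 15.6, 14.1 and 9.36 CPM in Myc/Akt1. Both groups were separated, opposite in direction to G0s2, with a log2 difference of 1.65 ± 0.26 (SE) and a limma adjusted p of 0.00165.

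Abhd5, the CGI-58 protein that activates PNPLA2, was at 160, 109 and 26.7 CPM in Myc/NrasG12V, against 37.9, 34.5 and 29.6 CPM in Myc/Akt1. It did not pass (limma adjusted p = 0.1205), and Myc/NrasG12V replicate 3 alone lay below the Myc/Akt1 values. Without that library the log2 difference was 1.93 and the limma adjusted p 3.94e-04, with a range over the alternatives from 3.94e-04 to 0.349. Lipe, the hormone-sensitive lipase of the second step, averaged 9.36 ± 3.37 CPM in Myc/NrasG12V and 4.57 ± 1.09 CPM in Myc/Akt1 (SD, n = 3 each; limma adjusted p = 0.0590). With TMM, median-of-ratios or upper-quartile factors Lipe passed (limma adjusted p = 0.0233, 0.0215 and 0.0201; range over the alternatives 0.00113 to 0.190). Abhd5 and Lipe were chosen for naming after their values were seen.

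Of 25 tested genes of droplet formation and coat outside these families, 1 was higher in Myc/NrasG12V, 9 were lower and 15 did not pass, with a median log2 difference of -0.68. These were 4% and 36%, near the 10% and 29.5% of all tested genes. Higher in Myc/NrasG12V were 4 under each other scaling factor, edgeR and DESeq2, and 2 without Myc/NrasG12V replicate 3. Clstn3 had 24 reads over the Myc/NrasG12V libraries and 1940 over the Myc/Akt1 libraries (log2 difference -4.23, limma adjusted p = 9.26e-05). Gene counts do not separate the isoforms of Clstn3. Pcyt1a, the rate-limiting enzyme of phosphatidylcholine for the droplet surface, was 4.40-fold, the droplet-associated Mettl7b 7.75-fold and Fitm2, which aids droplet budding from the ER, 2.66-fold higher in Myc/Akt1. The gene higher in Myc/NrasG12V was Lpin1, a phosphatidate phosphatase and coactivator, at 272 ± 44.0 CPM in Myc/NrasG12V and 120 ± 48.5 CPM in Myc/Akt1 (SD, n = 3 each; limma adjusted p = 0.0117). Bscl2, which encodes the droplet assembly protein seipin, averaged 37.8 ± 3.41 CPM in Myc/NrasG12V and 41.8 ± 3.92 CPM in Myc/Akt1 (SD, n = 3 each; limma adjusted p = 0.531), and was also picked after its values were seen.

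Of 12 tested genes of fatty acid uptake and binding, 2 were higher in Myc/NrasG12V and 7 lower, or 16.7% and 58.3%, against 10% and 29.5% of all tested genes. Cd36, a fatty acid translocase, averaged 45.6 ± 4.41 CPM in Myc/NrasG12V and 572 ± 166 CPM in Myc/Akt1 (SD, n = 3 each; limma adjusted p = 3.78e-05). Fabp1, the liver fatty acid binding protein, was 9.01-fold and Lipc, the hepatic lipase, 3.99-fold higher in Myc/Akt1, while Fabp5 was 4.05-fold higher in Myc/NrasG12V. The other gene higher in Myc/NrasG12V was Lpl, whose call ended with the replicate block (limma adjusted p = 0.0575), with no filter beyond 1 read (0.0766) and without any 1 of 5 libraries, all but Myc/NrasG12V replicate 1 (range over the alternatives 3.76e-04 to 0.133). The 7 became 4 with median-of-ratios or upper-quartile factors and without Myc/Akt1 replicate 1, and 3 with edgeR. Of 12 genes of lipoprotein assembly and export, 4 (Sar1b, Creb3l3, Tmem41b and Mttp) were lower in Myc/NrasG12V as CPM, 5 at an unadjusted p under 0.05 in limma, and 0 under each other scaling factor, edgeR and DESeq2. On the CPM scale the 4 were 33.3% of the list, near the 29.5% of all tested genes, and became 1 with no filter beyond 1 read and without Myc/Akt1 replicate 1 or 2, and 2 without Myc/NrasG12V replicate 2 or 3. Higher in Myc/NrasG12V were 0 as CPM by limma adjusted p, 2 at an unadjusted p under 0.05 in limma, and 2 with each other factor, edgeR or DESeq2. That count was 1 with the replicate block and without Myc/Akt1 replicate 3 or Myc/NrasG12V replicate 1.

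Of 24 transcription factors and coregulators of lipid genes, 2 were higher in Myc/NrasG12V and 8 lower. These were 8.33% and 33.3%, near the 10% and 29.5% of all tested genes, and the 8 became 5 under each other scaling factor, by edgeR or DESeq2, and without Myc/Akt1 replicate 1. Pparg, the nuclear receptor that drives droplet genes in adipocytes and fatty hepatocytes, was at 8.60, 6.43 and 9.51 CPM in Myc/NrasG12V, against 44.3, 34.8 and 43.0 CPM in Myc/Akt1. The groups were separated, with a log2 difference of -2.19 ± 0.21 (SE) and a limma adjusted p of 1.92e-04. Nr1h4, the bile acid receptor, was 4.30-fold and Nr1h3, the oxysterol receptor LXR alpha, 2.21-fold higher in Myc/Akt1. Epas1, the hypoxia-inducible factor HIF2 alpha, went the other way at 456 ± 53.2 CPM in Myc/NrasG12V and 131 ± 7.81 CPM in Myc/Akt1 (SD, n = 3 each; limma adjusted p = 1.63e-04). The second factor gene higher in Myc/NrasG12V was Lpin1, given above.

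**Figure D5:**
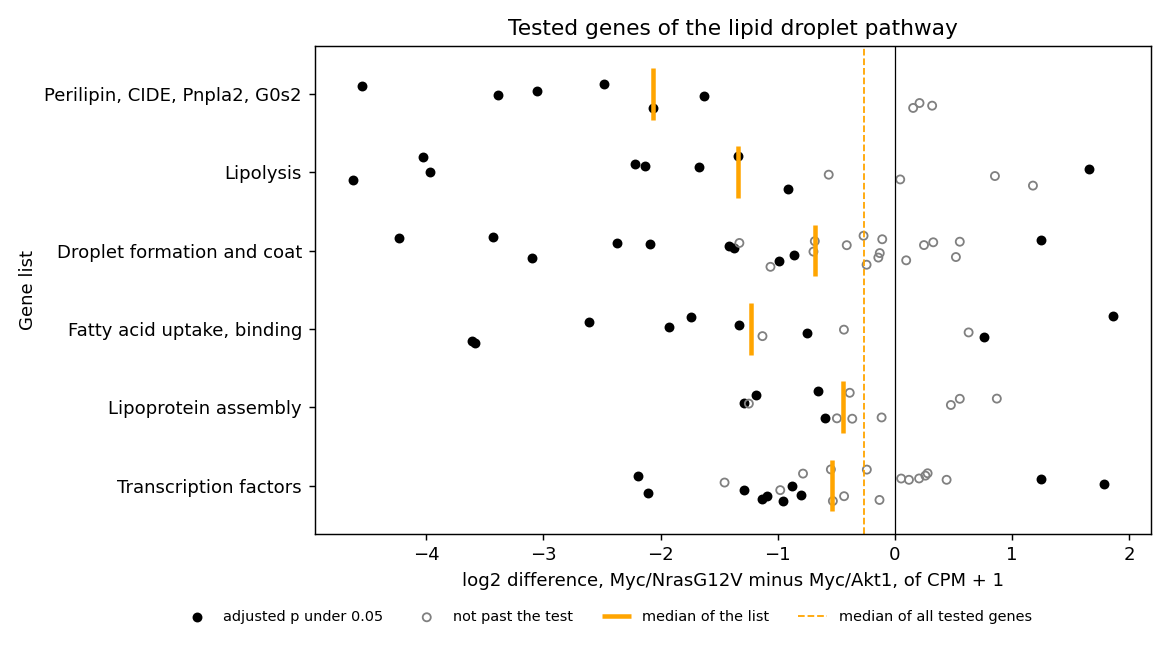
Limma log2 difference in log2(CPM + 1), Myc/NrasG12V minus Myc/Akt1, of each tested gene of the 10 and of the 5 lists, filled where the adjusted p is under 0.05, with list medians (orange bars) and the median of all tested genes, -0.26 (dashed). The medians run from -2.06 for the perilipin, CIDE, Pnpla2 and G0s2 genes to -0.44 for lipoprotein assembly.

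Markers of cell types moved with the groups as well. The 10 hepatocyte markers took 13.3 to 16.3% of reads in Myc/NrasG12V and 4.32 to 5.89% in Myc/Akt1, led by Alb, Apoa1 and Fgb, with 4 of 10 called higher in Myc/NrasG12V. By edgeR or DESeq2, 6 of these markers were called higher there. Alb, most of that share, was 3.30-fold higher in Myc/NrasG12V and its groups did not overlap. Its log2 difference of 1.72 ± 0.95 (SE) still did not pass in limma (adjusted p = 0.184). Ttr averaged 2281 ± 904 CPM in Myc/NrasG12V and 4332 ± 1052 CPM in Myc/Akt1 (SD, n = 3 each). Apoa2 averaged 1663 ± 483 CPM in Myc/NrasG12V and 2651 ± 945 CPM in Myc/Akt1 (SD, n = 3 each). Ttr and Apoa2 were named after their values were seen and did not pass either. Erythroid markers summed to 301 to 1870 CPM in Myc/NrasG12V and 50.03 to 104 CPM in Myc/Akt1 (6 of 8 called), led by Hbb-bs, Hba-a1 and Hbb-bt. Neutrophil markers summed to 26.0 to 197 CPM in Myc/NrasG12V and 2.18 to 2.67 CPM in Myc/Akt1 (8 of 9 called), led by S100a9, S100a8 and Ngp. Macrophage markers summed to 216 to 354 CPM in Myc/NrasG12V and 144 to 202 CPM in Myc/Akt1, with Lyz2, Clec4f and Csf1r the most abundant. Of these 11 markers, 5 were called higher in Myc/NrasG12V (Clec4f, Marco, Vsig4, Cd163 and Itgam). The other 6 did not pass, among them Lyz2 (log2 difference -0.08, limma adjusted p = 0.821) and Csf1r (log2 difference 0.75, limma adjusted p = 0.0884). The 5 became 6 with each other scaling factor, edgeR or DESeq2, and 3 without Myc/Akt1 replicate 3 or Myc/NrasG12V replicate 2. Stellate cell markers, of cells that store vitamin A in droplets, overlapped at 518 to 614 CPM in Myc/NrasG12V and 381 to 614 CPM in Myc/Akt1, led by Col3a1, Dcn and Col1a2. Of the 11 markers, Dcn and Reln were called higher in Myc/NrasG12V (18.2%, against 10% of all tested genes), or 4 markers by DESeq2, while Col3a1 averaged 134 ± 38.8 CPM in Myc/NrasG12V and 191 ± 59.3 CPM in Myc/Akt1 (SD, n = 3 each) and did not pass. Without Myc/NrasG12V replicate 3, 1 stellate marker was called lower in Myc/NrasG12V. The part of these cell types in the droplet gene differences was not tested. Adipocyte markers overlapped at 381 to 691 CPM in Myc/NrasG12V and 407 to 511 CPM in Myc/Akt1, mostly Lpl, Fabp4 and Pparg, which other cells also express.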

How the data were processed

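Per the labels' protocols, poly(A) RNA was sequenced as stranded single-end libraries. GRCm38 is the build in the submitters' processing notes, which list edgeR 3.22.5 and Subread 1.6.3 beside STAR 2.6.1c. The annotation release is not given in the sources used here, nor is the strand setting. The deposited values are CPM. All were whole multiples of 1 read within 0.01 read (100% of values), so reads were recovered. Genes passing edgeR's filterByExpr (0.457 CPM in 3 libraries, 15 reads in total), 14365 of 39179, were compared with limma 3.58.1 on log2(CPM + 1) with a trended prior and two-sided p-values. Differences are Myc/NrasG12V minus Myc/Akt1, with Benjamini-Hochberg adjustment over all of them. Folds are ratios of mean CPM. R 4.3.3, edgeR 4.0.16 and DESeq2 1.42.0 were used, and the procedure was tested on simulated data. Coordinates and exon lengths are from GENCODE M21 (96.0% of identifiers matched), promoter windows from RefSeq on GRCm38.p6. With 3 against 3 libraries an exact permutation p cannot be below 0.1.

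The genes and lists were chosen with earlier results of these data known. Named were the 10 genes, the 4 genes of lowest adjusted p in each pathway list, the 3 most abundant markers of each cell type with Adipoq, Lep, Retn and Ucp1, neighbours, and genes of like profile. Other genes of small counts, and Cfd, Reln, Ttr, Apoa2, Marco, Vsig4, Cd163 and Itgam, were named after their values were seen. Of the listed symbols, Ldaf1 and Spart were not matched. The planned protein comparison was not made, since no protein table was used here. Alternatives were 3 scaling factors, 2 filters, 2 pseudocounts, edgeR, DESeq2, a replicate block and the omission of 1 library at a time. Floors cover counting error only.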

Additional observations from a re-analysis of the deposited data

How the results depend on the processing

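The counts of 6 genes lower and 0 higher in Myc/NrasG12V held under all 16 alternatives run. The highest adjusted p over them was 0.0212 for Plin2, 0.0132 for Plin4, 0.00115 for Plin5, 0.0402 for Cideb, 0.00879 for Cidec and 0.00221 for G0s2. The log2 difference of Cidea, 0.16, was -0.27 with edgeR, -0.29 without Myc/NrasG12V replicate 3, and -0.29 and -0.36 without Myc/Akt1 replicates 2 and 3. That of Pnpla2, 0.32, was -0.02 without Myc/NrasG12V replicate 3. Leaving out 1 library, Cidea ranged from -0.36 to 1.11 and Pnpla2 from -0.02 to 0.60. Plin3 and Pnpla2 passed under none of the 16 alternatives (lowest adjusted p 0.0569 and 0.118), nor did Cidea under the 14 that gave it an adjusted p. With at least 1 CPM in 3 libraries and with DESeq2 Cidea had none.

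Calls over all tested genes split into 1437 with Myc/NrasG12V higher and 4240 with Myc/Akt1 higher. These became 2331 and 2565 with TMM factors, 2366 and 2515 by median of ratios, 2544 and 2343 by upper quartile, 2381 and 2512 with edgeR, and 2752 and 2791 with DESeq2. Without division by exon length Plin5 held 5.59% of the perilipin sum in Myc/NrasG12V and 13.3% in Myc/Akt1, and Plin4 5.85% in Myc/NrasG12V, then above Plin5, and 7.96% in Myc/Akt1. Same-numbered libraries deviated from their group means with correlations of -0.0812, 0.113 and 0.0848, and differently numbered ones with -0.136 to 0.0868. With 3 libraries per group these values cannot decide whether the numbers pair the samples. With the replicate block 5530 genes were called against 5677 without it, with the same 6 and 0 of the droplet genes. For the G0s2 to Pnpla2, Plin5 to Plin2, Plin3 to Plin2 and Cidec to Cideb ratios, the paired exact permutation p was 0.25, the smallest that 3 pairs allow. Leaving out 1 library gave differences from -5.23 to -4.35, -1.41 to -0.67, 2.00 to 2.57 and -2.14 to -1.08 for these pairs in that order. Cidea had 3 to 182 reads per Myc/Akt1 library, and Plin1 was at 0 reads in 5 of 6 libraries.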

Other observations

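The genes whose centred log2(CPM + 1) profile over the 6 libraries lay closest to that of G0s2, by root mean square distance, were Serpinb1a (0.406), an inhibitor of neutrophil proteases, Inhbe (0.503), the activin E subunit secreted by hepatocytes, and Nat8 (0.566), an N-acetyltransferase. Like G0s2, Serpinb1a was highest in Myc/Akt1 replicate 3, at 1.34, 1.61 and 2.80 CPM in Myc/NrasG12V, against 50.9, 36.2 and 119 CPM in Myc/Akt1. Inhbe was at 1.39, 2.57 and 0.839 CPM in Myc/NrasG12V, against 44.8, 41.8 and 81.2 CPM in Myc/Akt1. Closest to Pnpla2, the gene with the highest log2 difference of the 10, were Trappc5 (0.0796), Eme2 (0.101) and Clasrp (0.105), none of them called. Their log2 differences were 0.32, 0.26 and 0.39, and each of these 3 genes was highest in replicate 3 of both groups.

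Of 18 neighbouring genes outside the 10, 9 were called (50%, against 39.5% of all tested genes), 2 higher in Myc/NrasG12V (Lrg1 and Cracr2b) and 7 lower. Neighbours were the tested genes with the nearest start on each side, so not all are adjacent. The 7 include Plxna2, 1345 kb from G0s2, while Lamb3, within which G0s2 lies, is not among the 18. Pex11a, a peroxisome division gene 3.05 kb from the silent Plin1, averaged 31.0 ± 10.4 CPM in Myc/NrasG12V and 146.6 ± 35.3 CPM in Myc/Akt1 (SD, n = 3 each; limma adjusted p = 6.86e-04). Uhrf1, a DNA methylation maintenance gene 10.45 kb from Plin3, averaged 4.84 ± 3.23 CPM in Myc/NrasG12V and 29.9 ± 10.8 CPM in Myc/Akt1 (SD, n = 3 each; limma adjusted p = 0.00217).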
